A study of Mus musculus with 9 samples.

Results

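The genes described here are 5 cadherins, Cdh1 (E-cadherin), Cdh2 (N-cadherin), Cdh3 (P-cadherin), Cdh11 (OB-cadherin) and Cdh13 (T-cadherin), together with Epcam, the epithelial cell adhesion molecule. They were chosen by symbol: every probe set that the platform annotation assigns to 1 of these 6 symbols was taken, which gave 13 of the 45101 probe sets on the array. All 6 genes were among the 13064 genes tested, and 10 of their 13 probe sets passed the filter on dim signals. The 3 that did not are all probe sets of Cdh13.

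The study measured 3 layers of the newborn mouse bladder, each with 3 arrays. The detrusor is the smooth muscle wall, the urothelium is the epithelium that lines the lumen, and the stroma is the connective tissue between them. All 9 samples came from FVB/N mice that carried the SMGA/EGFP transgene, named for smooth muscle gamma actin (Actg2), so no group lacks it. Sex is recorded as unknown. The detrusor group held 2 arrays of postnatal day 1 and 1 of day 2, and the stroma and urothelium groups each held 1 of day 1 and 2 of day 2. Layers were cut by laser capture from 8-micron frozen sections, unpooled, and the RNA was amplified in 2 rounds before hybridisation to a single-colour Affymetrix array. The labels do not tie arrays to animals, so the p-values measure the spread between these arrays, part of which may be technical. The numbers 1 to 3 within a layer only name its arrays.

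Classical cadherins are calcium-dependent adhesion proteins that bind the same kind of molecule on a neighbouring cell and hold on to actin through catenins. E-cadherin and P-cadherin are best known in epithelia, N-cadherin and OB-cadherin in mesenchyme, muscle and nerve. T-cadherin lacks the cytoplasmic tail, is tied to the membrane by a lipid anchor and also binds adiponectin. Epcam is a single-pass membrane protein of simple and transitional epithelia, is not a cadherin, and is found in complexes with claudin 7 and tetraspanins.

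A promoter sequence could be matched for 1 of the 6 genes, Epcam. It is shown because some genes for regulators known to bind the motifs in capitals differed between urothelium and detrusor, as described further on. They were Zeb1, Zeb2, Grhl2 and Grhl3. Of the Snail family, Snai1 did not pass the filter, and Snai2 and Snai3 were called in no comparison. The stretch is the 250 bases before the annotated start, chr17:87635729-87635978 of GRCm38.p6, plus strand, from RefSeq. The capitals mark CAGGTG on either strand (CACCTG on the strand shown), the E-box bound by Snail and Zeb repressors, and ACCGGT, a core of Grainyhead-like sites that reads the same on both strands.
Epcam promoter: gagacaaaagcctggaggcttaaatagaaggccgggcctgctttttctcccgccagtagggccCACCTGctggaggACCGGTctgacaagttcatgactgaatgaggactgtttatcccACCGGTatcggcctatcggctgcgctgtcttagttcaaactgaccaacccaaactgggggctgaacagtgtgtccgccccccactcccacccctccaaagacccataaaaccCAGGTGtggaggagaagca
The E-box begins 187 and 19 bases before the start, and ACCGGT begins 174 and 131 bases before it. No match overlaps another. Of 32851 mouse promoter windows of this length, 17.2% hold at least 1 such E-box and 2.06% hold at least 2. ACCGGT occurs in 1.86% of the windows, and 9 windows (0.0274%) hold at least 2 copies. Both motifs were picked with the sequence in view, and a match describes the letters only.

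Levels below are log2(intensity + 39.31) of the deposited values, in which every array has the same trimmed mean of 1500.01. A probe set with no signal would read 5.30 on this scale, and levels of different genes are not comparable, since each probe set has its own response. Array medians spanned intensities of 133 to 388. The ratio of 3′ to 5′ signal of the beta-actin control, a sign of RNA length, was 2.27 to 7.49 in detrusor, 5.32 to 8.49 in urothelium, 24.7 on stroma 1 and at most 7.96 on the other stroma arrays. The same ratio of the Gapdh control was 15.3 to 34.7 over all arrays, highest on detrusor 2, with 31.8 on stroma 1. All 9 urothelial markers were higher in urothelium than in detrusor, where 8.37% of all genes were, while the marker levels varied between arrays of 1 layer. The median level of those 9 markers was 14.17 to 15.35 in urothelium and 8.46 to 8.67 in detrusor, while in stroma it was 12.72, 9.68 and 13.40. Of the 9 smooth muscle markers, the median was 15.08 to 16.01 in detrusor and 9.12 to 11.57 in stroma. It was 9.75 and 8.05 on urothelium 1 and 2 and 13.97 on urothelium 3. Fibroblast markers had medians of 15.02 to 15.43 in stroma, 14.26 to 15.15 in detrusor and 12.51 to 13.30 in urothelium. A list of kidney tubule genes was added after the values of Cdh16 were seen, and its 10 measured genes other than Cdh16 had medians of 6.90 to 7.67 in detrusor, 7.52 on stroma 1 and 7.13 on urothelium 2. It stood at 8.76 on stroma 2, 10.78 on stroma 3, 11.12 on urothelium 1 and 9.26 on urothelium 3. For some members, results are also given without stroma 3 and urothelium 3, or without stroma 3, urothelium 1 and urothelium 3. The first of these sets keeps urothelium 1, the array with the highest median of the kidney list. The second of these leaves 1 urothelium array, urothelium 2 of postnatal day 1, which is assumed to vary like the other layers.

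Epcam was high on every urothelium array, intermediate in stroma and low in detrusor. Its levels were 15.09, 15.19 and 15.35 in urothelium, which spans less than in any other layer. In stroma they were 12.41, 13.14 and 14.78, and in detrusor 8.81, 5.91 and 7.52. The 3 layers did not overlap, and detrusor 2 was close to the level of no signal. Means were 15.21 ± 0.13 in urothelium, 13.44 ± 1.21 in stroma and 7.41 ± 1.45 in detrusor (SD, n = 3 each). In limma, Epcam was higher in urothelium than in detrusor by 7.80 ± 0.71 (SE, log2), a 222-fold difference on this scale, with an adjusted p of 0.00025. Detrusor was lower than stroma by 65.2-fold (log2 difference -6.03 ± 0.71, limma adjusted p = 0.00214). The urothelium minus stroma difference was 1.77 ± 0.71 with a 95% interval of 0.20 to 3.34 and did not pass (limma adjusted p = 0.208, unadjusted 0.0304).

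Both Epcam calls held in all 22 alternative settings of the fit over genes, and the difference from stroma was called in none (limma adjusted p = 0.0814 to 0.436). The sizes depended on the probe set. The second Epcam probe set, 1447899_x_at, read 10.08, 10.15 and 9.61 in detrusor, 10.50, 10.91 and 12.42 in stroma and 11.55, 11.04 and 11.60 in urothelium. It kept the order of the layer means, but its urothelium minus detrusor difference was only 1.45 ± 0.48 and did not pass across 22207 probe sets (limma adjusted p = 0.0769). On that probe set detrusor minus stroma, -1.33 ± 0.48, did not pass either (limma adjusted p = 0.154). Averaging the 2 probe sets gave 4.62 for urothelium minus detrusor and -3.68 for detrusor minus stroma. Without stroma 3, urothelium 1 and urothelium 3 the same differences were 7.77 (limma adjusted p = 0.00408) and -5.36 (limma adjusted p = 0.0171). Stroma 2 combined an Epcam level of 13.14 with the lowest urothelial marker median of the 3 stroma arrays (9.68). In dissected tissue, fewer cells of a type and less RNA per cell cannot be told apart, and the part that carried-over urothelium, or transcripts of the kidney tubule list, had in the stroma levels was not tested.

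Cdh1, the main adhesion protein of epithelial adherens junctions, ranked the layers in the same order. Its levels were 13.77, 15.07 and 13.55 in urothelium, 10.81, 9.94 and 13.54 in stroma and 7.89, 6.48 and 6.81 in detrusor. Stroma 3 lay just below urothelium 3, the lowest array of its layer, while the other stroma arrays lay nearer the middle of the range. Detrusor stood apart from both other layers. Its Cdh1 signal was dim, at percentiles 48, 24 and 31 of detrusor 1, 2 and 3, so fold changes against detrusor rest on signals below the array median. Means were 14.13 ± 0.82, 11.43 ± 1.88 and 7.06 ± 0.74 (SD, n = 3 each). Urothelium was higher than detrusor by 7.07 ± 0.81, or 134-fold (limma adjusted p = 0.000704), and this call held in all 22 alternatives with values of 5.76 to 8.01. Detrusor was lower than stroma by 20.7-fold (-4.37 ± 0.81, limma adjusted p = 0.0158). That call was lost without detrusor 2 (-4.08, limma adjusted p = 0.0659) or without detrusor 3 (-4.24, limma adjusted p = 0.0724).

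Between urothelium and stroma, the Cdh1 arrays did not overlap and the difference was 2.70 ± 0.81 (95% interval 0.91 to 4.49), but it did not pass (limma adjusted p = 0.111, unadjusted 0.00692). This result depended on stroma 3. Over all genes, leaving out stroma 3 raised the calls in this comparison from 8 higher and 22 lower to 327 higher and 201 lower. Without that array the difference was 3.75 and passed (limma adjusted p = 0.0120), and it also passed without stroma 3 and urothelium 3 (4.04, limma adjusted p = 0.0190) and without stroma 3, urothelium 1 and urothelium 3 (4.69, limma adjusted p = 0.0311). On stroma 3 the urothelial markers had a median of 13.40 and the kidney tubule list one of 10.78. The part of either in the Cdh1 level of that array was not tested.

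**Figure D1:**
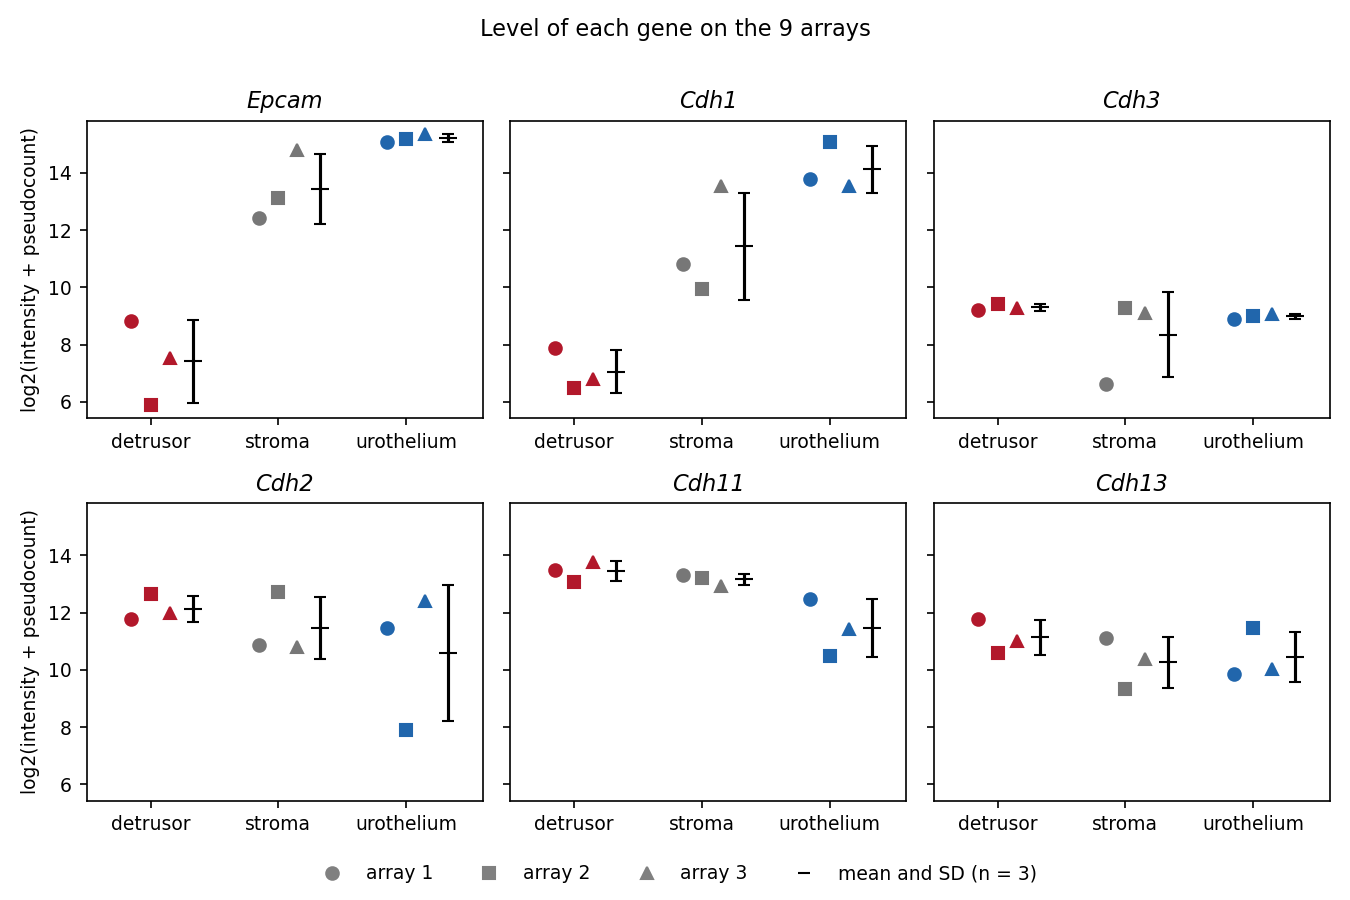
Level of each of the 6 genes on the 9 arrays, as log2(intensity + 39.31) of the probe set that stands for the gene, with points for arrays and bars for the layer mean and SD (n = 3). Epcam and Cdh1 separate detrusor from the other layers (Epcam means 7.41, 13.44 and 15.21 in detrusor, stroma and urothelium), Cdh11 is lowest in urothelium, and Cdh2, Cdh3 and Cdh13 overlap between most layers.

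Cdh3 lies next to Cdh1 on the chromosome, with no protein-coding gene between them in RefSeq, but its signal did not follow that of Cdh1. Its levels were 9.21, 9.42 and 9.27 in detrusor, 6.64, 9.29 and 9.11 in stroma and 8.89, 9.01 and 9.06 in urothelium. Stroma 1, whose beta-actin 3′ to 5′ ratio was 24.7, was the lowest array, and the other 8 lay between 8.89 and 9.42. The part of RNA length in the stroma 1 value was not tested. The means were 9.30 ± 0.11, 8.35 ± 1.48 and 8.98 ± 0.088 (SD, n = 3 each). Urothelium and detrusor did not overlap, but their difference was only -0.32 ± 0.63 (95% interval -1.71 to 1.08, limma adjusted p = 0.804). Detrusor minus stroma was 0.95 ± 0.63 (-0.44 to 2.35, limma adjusted p = 0.401) and urothelium minus stroma 0.64 ± 0.63 (-0.76 to 2.03, limma adjusted p = 0.633). Without stroma 1 the last value turned to -0.21. A second probe set, 1441255_at, spanned 7.55 to 8.58 over the 9 arrays, and its differences were -0.20 for detrusor minus stroma, -0.19 for urothelium minus stroma and 0.01 for urothelium minus detrusor, opposite in sign to the first in each case. No layer order of Cdh3 can be given from these arrays.

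Cdh11, a cadherin of mesenchymal cells, was high in detrusor and stroma and lower in urothelium. It read 13.50, 13.08 and 13.76 in detrusor, 13.33, 13.21 and 12.94 in stroma and 12.47, 10.48 and 11.44 in urothelium. No urothelium array reached any array of the other layers, while detrusor and stroma overlapped. Means were 13.44 ± 0.34, 13.16 ± 0.20 and 11.46 ± 1.00 (SD, n = 3 each). Urothelium was lower than detrusor by 3.94-fold (-1.98 ± 0.44, limma adjusted p = 0.0117), a call that was lost without detrusor 3 (-1.82, limma adjusted p = 0.0575) and held in the 21 other alternatives. Against stroma the difference was of similar size, -1.70 ± 0.44 (95% interval -2.67 to -0.72), and did not pass (limma adjusted p = 0.0788, unadjusted 0.00282). It passed only without stroma 3, urothelium 1 and urothelium 3 (-2.79, limma adjusted p = 0.0293). Detrusor minus stroma was 0.28 ± 0.44 (-0.69 to 1.26, limma adjusted p = 0.738).

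The second Cdh11 probe set, 1435120_at, read 10.01 to 10.98 in detrusor, 10.46 to 10.95 in stroma and 8.57 to 9.95 in urothelium. Its urothelium minus detrusor difference was -1.17 ± 0.45 and missed the threshold (limma adjusted p = 0.123), as did urothelium minus stroma at -1.34 ± 0.45 (limma adjusted p = 0.175). Fibroblast markers moved with Cdh11: 4 of 9 were lower in urothelium than in detrusor and 4 of 9 lower than in stroma, with none higher. Of all genes, 8.05% and 0.168% were lower in these comparisons. Smooth muscle markers on urothelium 3 had a median of 13.97, the highest of that layer, whereas its Cdh11 level of 11.44 was the middle of the 3. The part of other cell types in the urothelial Cdh11 signal was not tested.

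Cdh2, the cadherin of nerve, muscle and many mesenchymal cells, did not separate the layers. It read 11.78, 12.64 and 11.98 in detrusor, 10.88, 12.72 and 10.79 in stroma and 11.45, 7.90 and 12.39 in urothelium. Urothelium 2 was lower than every other array and the other 8 arrays lay between 10.79 and 12.72. The second probe set, 1449244_at, was also lowest on urothelium 2, at 7.46, with the other arrays at 8.47 to 11.83. Layer means were 12.13 ± 0.45 in detrusor, 11.46 ± 1.09 in stroma and 10.58 ± 2.37 in urothelium (SD, n = 3 each). The differences were 0.67 ± 0.96 for detrusor minus stroma (95% interval -1.46 to 2.79), -0.88 ± 0.96 for urothelium minus stroma (-3.01 to 1.24) and -1.55 ± 0.96 for urothelium minus detrusor (-3.68 to 0.57). None passed in limma (adjusted p = 0.715, 0.669 and 0.323).

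The urothelial Cdh2 value rested on 1 array. Without urothelium 2, urothelium minus stroma turned to 0.46 and urothelium minus detrusor was -0.21. Without stroma 3, urothelium 1 and urothelium 3, which leaves urothelium 2 alone in its layer, urothelium was lower than detrusor by 4.23 on the log2 scale (limma adjusted p = 0.0121). Urothelium 2 had the lowest median among urothelium arrays for smooth muscle (8.05), skeletal muscle (6.28), fibroblast (12.51), endothelial (8.54), pericyte (8.73), mesothelial (6.32) and kidney tubule (7.13) markers. It had the highest for urothelial (15.35) and for neural and glial markers (8.38), and the middle one for macrophage markers (8.87). The neural and glial list was mixed, with Ncam1 (11.06) and Elavl4 (5.93) at their lowest of the layer and S100b (8.38) at its highest. Rgs5 of the pericyte list was also at its highest (15.87). The mesothelial list did not go one way there. Wt1 (6.32) and Gpm6a (5.85) were at their lowest of the layer, and Upk3b (15.31) and Msln (10.61) at their highest. Upk3b, a uroplakin gene, was also higher in urothelium than in detrusor (5.77 to 9.83), like the urothelial markers. The summed intensity of the list, 42086 against 23748 and 30113 on urothelium 1 and 3, includes Upk3b and is therefore no measure of mesothelial cells. The array also had the lowest median intensity of all 9, 133, and was the only urothelium array of postnatal day 1. Which of these goes with the low Cdh2 signal was not tested.

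**Figure D2:**
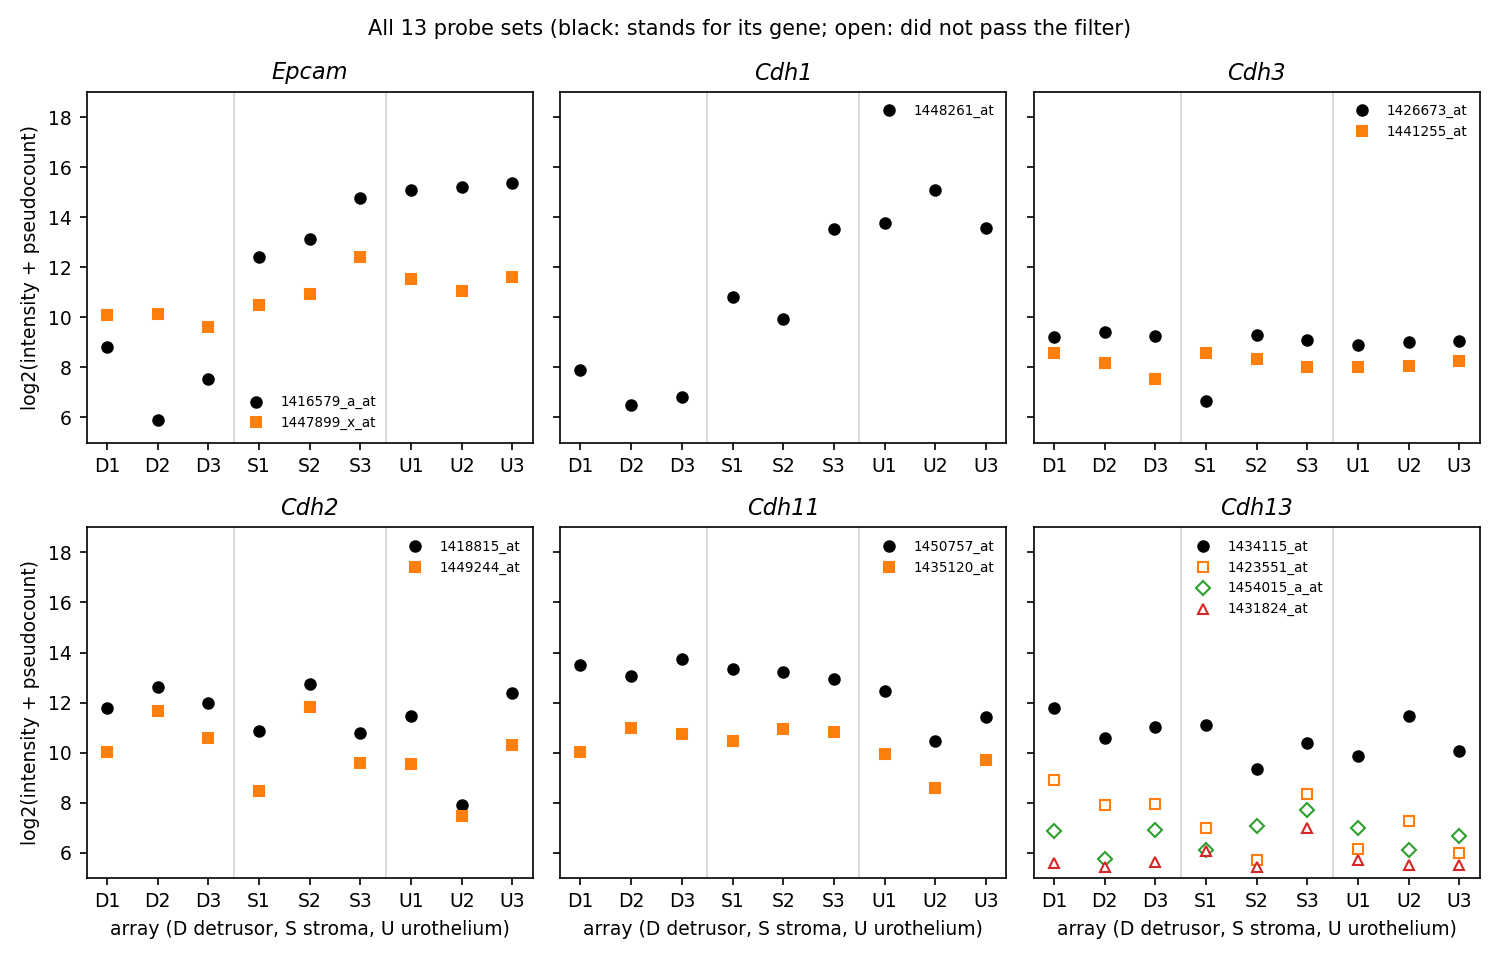
Levels of all 13 probe sets of the 6 genes on the 9 arrays, as log2(intensity + 39.31), with black points for the probe set that stands for the gene and open points for the 3 Cdh13 probe sets that did not pass the filter. Both Cdh2 probe sets are lowest on urothelium 2 (7.90 and 7.46), and the second Epcam probe set spans 9.61 to 12.42 where the first spans 5.91 to 15.35.

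Cdh13, which is known in smooth muscle and endothelium, also overlapped between layers. The probe set above the filter, 1434115_at, read 11.78, 10.60 and 11.02 in detrusor, 11.10, 9.33 and 10.39 in stroma and 9.85, 11.45 and 10.05 in urothelium. Urothelium 2 was the highest array of its layer and stroma 2 the lowest of all. The means were 11.13 ± 0.60, 10.27 ± 0.89 and 10.45 ± 0.87 (SD, n = 3 each). Detrusor minus stroma was 0.86 ± 0.56 (95% interval -0.38 to 2.10, limma adjusted p = 0.394), urothelium minus stroma 0.18 ± 0.56 (-1.07 to 1.42, limma adjusted p = 0.908) and urothelium minus detrusor -0.68 ± 0.56 (-1.92 to 0.56, limma adjusted p = 0.473). The intervals leave room for differences of more than 1 log2 unit in several directions. The sign of urothelium minus stroma turned with array weights (-0.19), without urothelium 2 (-0.32) and without stroma 2 (-0.29), and that of urothelium minus detrusor turned without stroma 3, urothelium 1 and urothelium 3 (0.32). Probe set 1423551_at reached the array median on 2 arrays, and 1454015_a_at (5.76 to 7.71) and 1431824_at (5.42 to 6.99) on 0.

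The 3 comparisons share layers, so their counts are given side by side and not set against each other. In urothelium against detrusor, 2 of the 6 genes were higher (Epcam, Cdh1) and 1 lower (Cdh11). Of all genes, 16.4% were called there, 8.37% higher and 8.05% lower. The arrays of these layers did not overlap for 4 of the 6 genes, 2 of them higher (Epcam, Cdh1) and 2 lower (Cdh11, Cdh3), and for 39.3% of all genes (19.3% higher, 20% lower). In detrusor against stroma 2 genes were lower (Epcam, Cdh1) and none higher, with 5.84% of all genes called, 3.12% higher and 2.72% lower. The same 2 genes were those without overlap, against 27.1% of all genes (11.8% higher, 15.3% lower). In urothelium against stroma 0 of 6 passed in limma, 3 had an unadjusted p under 0.05 (Cdh11, Cdh1, Epcam), and those 3 were also without overlap. Only 0.23% of all genes, 30 in number, were called in that comparison (0.0612% higher, 0.168% lower), 2481 had an unadjusted p under 0.05, and 23.1% did not overlap (9.77% higher, 13.3% lower).

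Over probe sets, 3 of the 10 that passed the filter were called in urothelium against detrusor (background 12.3%), 2 in detrusor against stroma (3.96%) and 0 in urothelium against stroma (0.176%). Centring each array on its own median moved the median of all genes from -0.16 to 0.25 in detrusor against stroma and from -0.12 to 0.31 in urothelium against stroma. The share of calls that were higher then went from 53.5% to 80.4% and from 26.7% to 86.1%, and with quantile normalization the latter was 45.2%. No member changed sign or call under either scaling.

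**Figure D3:**
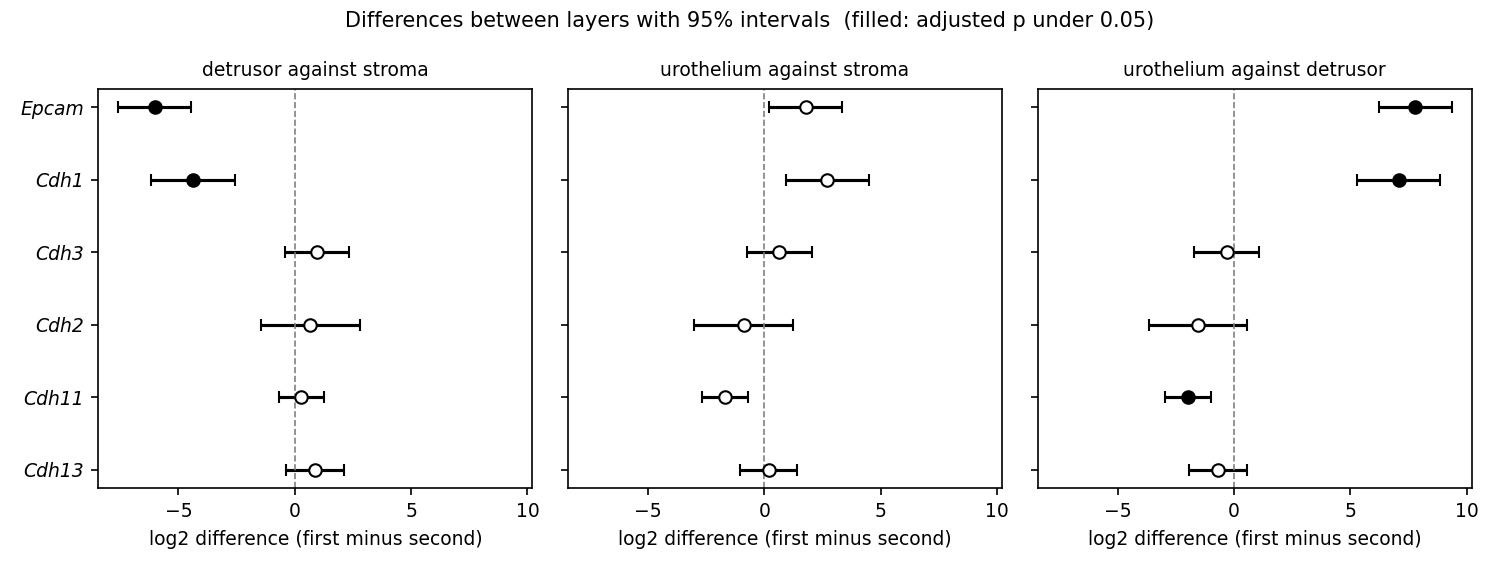
Log2 difference of each gene in the 3 comparisons with its 95% interval from limma, filled where the adjusted p is under 0.05. Epcam and Cdh1 lie far from 0 in both comparisons with detrusor (7.80 and 7.07 for urothelium minus detrusor), Cdh11 lies below 0 in both comparisons of urothelium, and the intervals of Cdh2, Cdh3 and Cdh13 include 0 throughout.

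Genes for the proteins that link cadherins to the cytoskeleton, and for the related nectins, had most of their calls in urothelium against detrusor, as did all genes tested. Of 15 catenins, nectins and linkers listed, 13 were tested. In urothelium against detrusor 4 were higher and 1 lower, where 8.37% of all genes were higher and 8.05% lower. The list's median difference was 0.85 where that of all genes was -0.0079. The core junction genes Ctnnb1 (beta-catenin) and Ctnna1 (alpha-catenin) differed by 0.23 ± 0.24 and -0.01 ± 0.27 there and did not pass in limma (adjusted p = 0.589 and 0.984). Ctnnd2, delta-catenin, was higher by 2.87 ± 0.40 (limma adjusted p = 0.00156) in all 22 alternatives. It read 13.02 to 13.24 in urothelium, 10.83 to 11.02 in stroma and 9.37 to 11.06 in detrusor, and its urothelium minus stroma difference of 2.23 ± 0.40 just missed (limma adjusted p = 0.0538). Nectin4, an epithelial nectin, was higher by 4.39 ± 0.83 (limma adjusted p = 0.00533), and Ctnnal1, alpha-catulin, by 2.33 ± 0.43 (limma adjusted p = 0.00497). The Nectin4 call was lost with the filter on 6 arrays. Ctnnal1 was lost without stroma 3, urothelium 1 and urothelium 3. The call of Afdn, afadin (0.85 ± 0.25, limma adjusted p = 0.0381), was lost in 11 of 22 alternatives, among them leaving out any 1 detrusor or urothelium array.

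Vcl, vinculin, which strengthens actin anchorage and is abundant in smooth muscle, went the other way. It was lower in urothelium than in detrusor by 1.53 ± 0.37 on the log2 scale (limma adjusted p = 0.0180) and higher in detrusor than in stroma by 1.81 ± 0.37 (limma adjusted p = 0.0220), the only call of the list in that comparison. Both calls were lost without detrusor 2 or detrusor 3, the first also without urothelium 1 or urothelium 2 and the second also without stroma 3. In urothelium against stroma 0 of 13 passed. Of all genes, 5.84% were called in detrusor against stroma and 0.23% in urothelium against stroma. The list's medians were -0.47 in detrusor against stroma and 0.44 in urothelium against stroma, where those of all genes were -0.16 and -0.12.

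Of 18 other cadherins, 16 were on the array with a named probe set and 8 were tested. None was called in either comparison with stroma, and 1 was higher in urothelium than in detrusor, as were 8.37% of all genes. That gene was Cdh17, known from liver and intestine, at 1.89 ± 0.52 (limma adjusted p = 0.0316), a call kept in 11 of 22 alternatives and lost without any 1 detrusor array, urothelium 2 or urothelium 3. Cdh4, retinal cadherin, lay at the threshold in the other direction (-1.97 ± 0.61, limma adjusted p = 0.05003), with 9.51 to 9.71 in detrusor and 6.23 to 8.41 in urothelium, and was called lower in 13 of 22 alternatives (limma adjusted p = 0.0193 to 0.141). The list's median differences were -0.12 in urothelium against detrusor, -0.66 in detrusor against stroma and 0.59 in urothelium against stroma. Those of all genes were -0.0079, -0.16 and -0.12. Cdh5, the endothelial cadherin, differed by -1.85 ± 0.50 between urothelium and stroma and did not pass (limma adjusted p = 0.0876). Cdh15, the cadherin of skeletal muscle precursors, differed by -1.58 ± 0.51 there (limma adjusted p = 0.125) and by -0.61 ± 0.51 between detrusor and stroma (limma adjusted p = 0.505). Cdh16, the kidney cadherin, read 7.49, 7.15 and 5.87 in detrusor, 7.41, 9.30 and 13.15 in stroma and 13.65, 6.95 and 12.32 in urothelium. It was high on urothelium 1, urothelium 3 and stroma 3, so its layer differences had an SE of 1.67 and none passed.

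Regulators known to repress E-cadherin were lower in urothelium where they differed. Of 9 listed, 8 were tested; Snai1 did not pass the filter. In urothelium against detrusor 4 were lower and 0 higher, where 8.05% of all genes were lower and 8.37% higher. The list's median was -1.10 and that of all genes -0.0079. Zeb1 was lower by 2.48 ± 0.53 on the log2 scale (limma adjusted p = 0.00957), in all 22 alternatives, and read 13.36, 14.18 and 13.51 in detrusor, 13.31, 13.64 and 12.04 in stroma and 11.09, 10.30 and 12.23 in urothelium. Zeb2 was lower by 2.13 ± 0.43 (limma adjusted p = 0.00764), a call lost only when probe sets were averaged. Twist1 (-2.19 ± 0.57, limma adjusted p = 0.0235) was lost without detrusor 1, detrusor 2 or urothelium 2 and in the fit without stroma 3, urothelium 1 and urothelium 3. Twist2 (-1.61 ± 0.42, limma adjusted p = 0.0244) was lost without any 1 detrusor array, urothelium 1 or urothelium 2, and with arrays centred on their medians.

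Against stroma, Twist2 was the only repressor called in urothelium (-2.68 ± 0.42, limma adjusted p = 0.0437), and the call was kept in 10 of 22 alternatives. Leaving out any 1 detrusor array, urothelium 1, urothelium 2 or stroma 1 ended it. Of all genes, 0.168% were lower in urothelium than in stroma. Without stroma 3 the number of repressors lower rose to 4, while that of all 13064 genes rose from 22 to 201. The list's median was -1.44 in urothelium against stroma, where that of all genes was -0.12. In detrusor against stroma 0 of 8 passed, where 5.84% of all genes were called. The list's median there was -0.64 and that of all genes -0.16. Snai2, a repressor of the Snail family, read 12.27 to 13.38 in detrusor, 12.63 to 13.26 in urothelium and 12.81 to 14.20 in stroma and passed in none. Twist2 also stands in the fibroblast marker list, and fibroblast markers moved in the same direction as these repressors. Their part in the repressor levels was not tested.

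Most epithelial transcription and splicing regulators, like Epcam and Cdh1, were higher in urothelium than in detrusor. All 10 listed were tested, and 8 were higher in urothelium than in detrusor with none lower, where 8.37% of all genes were higher. The list's median was 4.13 and that of all genes -0.0079. Esrp1, an epithelial splicing factor, was higher by 7.12 ± 0.60 (limma adjusted p = 0.000175) and Grhl2, a Grainyhead-like factor known to act on Cdh1, by 4.74 ± 0.42 (limma adjusted p = 0.000221). Grhl3 (4.90 ± 0.58), Foxa1 (8.50 ± 1.14) and Esrp2 (6.66 ± 0.87) were higher as well, with limma adjusted p of 0.00073, 0.00135 and 0.0012. Elf3 (2.21 ± 0.45, limma adjusted p = 0.00736) and Ovol1 (2.61 ± 0.50, limma adjusted p = 0.00556) were higher by less, and the call of Klf5 (3.52 ± 0.92, limma adjusted p = 0.0245) was lost without detrusor 2, detrusor 3, urothelium 1 or urothelium 2. With the filter on 6 arrays the calls of Esrp2 and Ovol1 were lost. Klf4 (-0.38 ± 0.52) and Ovol2 (1.13 ± 0.49) did not pass. In detrusor against stroma 4 were lower and 0 higher, where 2.72% of all genes were lower. The list's median was -2.22 and that of all genes -0.16. Esrp1 (-5.09 ± 0.60, limma adjusted p = 0.00214) and Grhl2 (-3.46 ± 0.42, limma adjusted p = 0.00249) were lower in all 22 alternatives. Grhl3 (-2.49 ± 0.58, limma adjusted p = 0.0320) and Foxa1 (-4.76 ± 1.14, limma adjusted p = 0.0368) were lost without any 1 detrusor array, urothelium 1, stroma 1 or stroma 3, whereas 8 genes were lower without stroma 2. In urothelium against stroma 0 of 10 passed, where 0.23% of all genes were called. The list's median there was 1.42 and that of all genes -0.12. Without stroma 3, 3 were higher, as were 327 of all 13064 genes.

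On the detrusor arrays Grhl2 read 7.61, 7.55 and 7.80. The stroma arrays stood at 11.08, 10.31 and 11.94 and the urothelium arrays at 12.58, 12.11 and 12.47. Even the lowest stroma array was well above detrusor. Foxa1 read 12.30, 8.04 and 13.16 in stroma, with stroma 2 below detrusor 3 (8.19), where Epcam on stroma 2 was 13.14. The stroma arrays thus did not hold the epithelial genes in a constant ratio. Urothelial markers, at 12.72, 9.68 and 13.40 on stroma 1, 2 and 3, had the same order as Foxa1, and the part of urothelial cells in them was not tested.

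Genes known to act with Epcam were mostly higher in urothelium than in detrusor. Of 12 listed, 10 were on the array with a named probe set and all 10 were tested. In urothelium against detrusor 6 were higher and 0 lower, where 8.37% of all genes were higher. The list's median was 2.45 and that of all genes -0.0079. Tspan8, a tetraspanin of the Epcam complex, was higher by 7.80 ± 0.81 (limma adjusted p = 0.000455) and Cldn7, claudin 7, by 6.22 ± 0.61 (limma adjusted p = 0.000379). The membrane protease genes St14 (matriptase, 6.26 ± 0.86) and Prss8 (prostasin, 5.82 ± 0.68) were higher too, with limma adjusted p of 0.00149 and 0.00073, as was their inhibitor Spint1 (3.64 ± 0.58, limma adjusted p = 0.0025). The St14 call was lost with the filter on 6 arrays. Spint2 (1.25 ± 0.36, limma adjusted p = 0.0371) was kept in 13 of 22 alternatives, and was lost without detrusor 1, detrusor 3 or any 1 urothelium array. The shedding proteases Adam10 (0.47 ± 0.29) and Adam17 (0.98 ± 0.34), which are expressed widely, did not pass. Psen2, a presenilin of the gamma-secretase that cleaves the Epcam stump, differed by -1.45 ± 0.45 (limma adjusted p = 0.0513) and was called lower in 10 of 22 alternatives.

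In detrusor against stroma the median of these 10 genes was -1.39, where that of all genes was -0.16. Of the 10, 4 were lower and 0 higher, against 2.72% of all genes lower. Those 4 were Tspan8 (-5.52 ± 0.81, limma adjusted p = 0.00661), called in all 22 alternatives, Cldn7 (-3.22 ± 0.61, limma adjusted p = 0.0168), Prss8 (-3.07 ± 0.68, limma adjusted p = 0.0286) and St14 (-3.40 ± 0.86, limma adjusted p = 0.0452). Cldn7 was lost without detrusor 2 or detrusor 3, Prss8 without any 1 detrusor array, stroma 1 or stroma 3, and St14 without any 1 detrusor or urothelium array. St14 was kept in only 7 of 22 alternatives and was lost also with quantile normalization, with either other filter and with day as a covariate. Prss8 was kept in 13 of 22 and Cldn7 in 19 of 22. The count was 1 without detrusor 2 or detrusor 3, and 2 without detrusor 1. In urothelium against stroma 0 of 10 passed, where 0.23% of all genes were called. The list's median there was 1.54 and that of all genes -0.12. Without stroma 3, 5 were higher, as were 327 of all 13064 genes. Of the T-cadherin ligand Adipoq and the adiponectin receptor genes, Adipoq did not pass the filter. Adipor2 was higher in urothelium than in detrusor by 1.09 ± 0.30 (limma adjusted p = 0.0304), a call lost without any 1 detrusor array or urothelium 2, and Adipor1 differed by -0.08 ± 0.30.

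**Figure D4:**
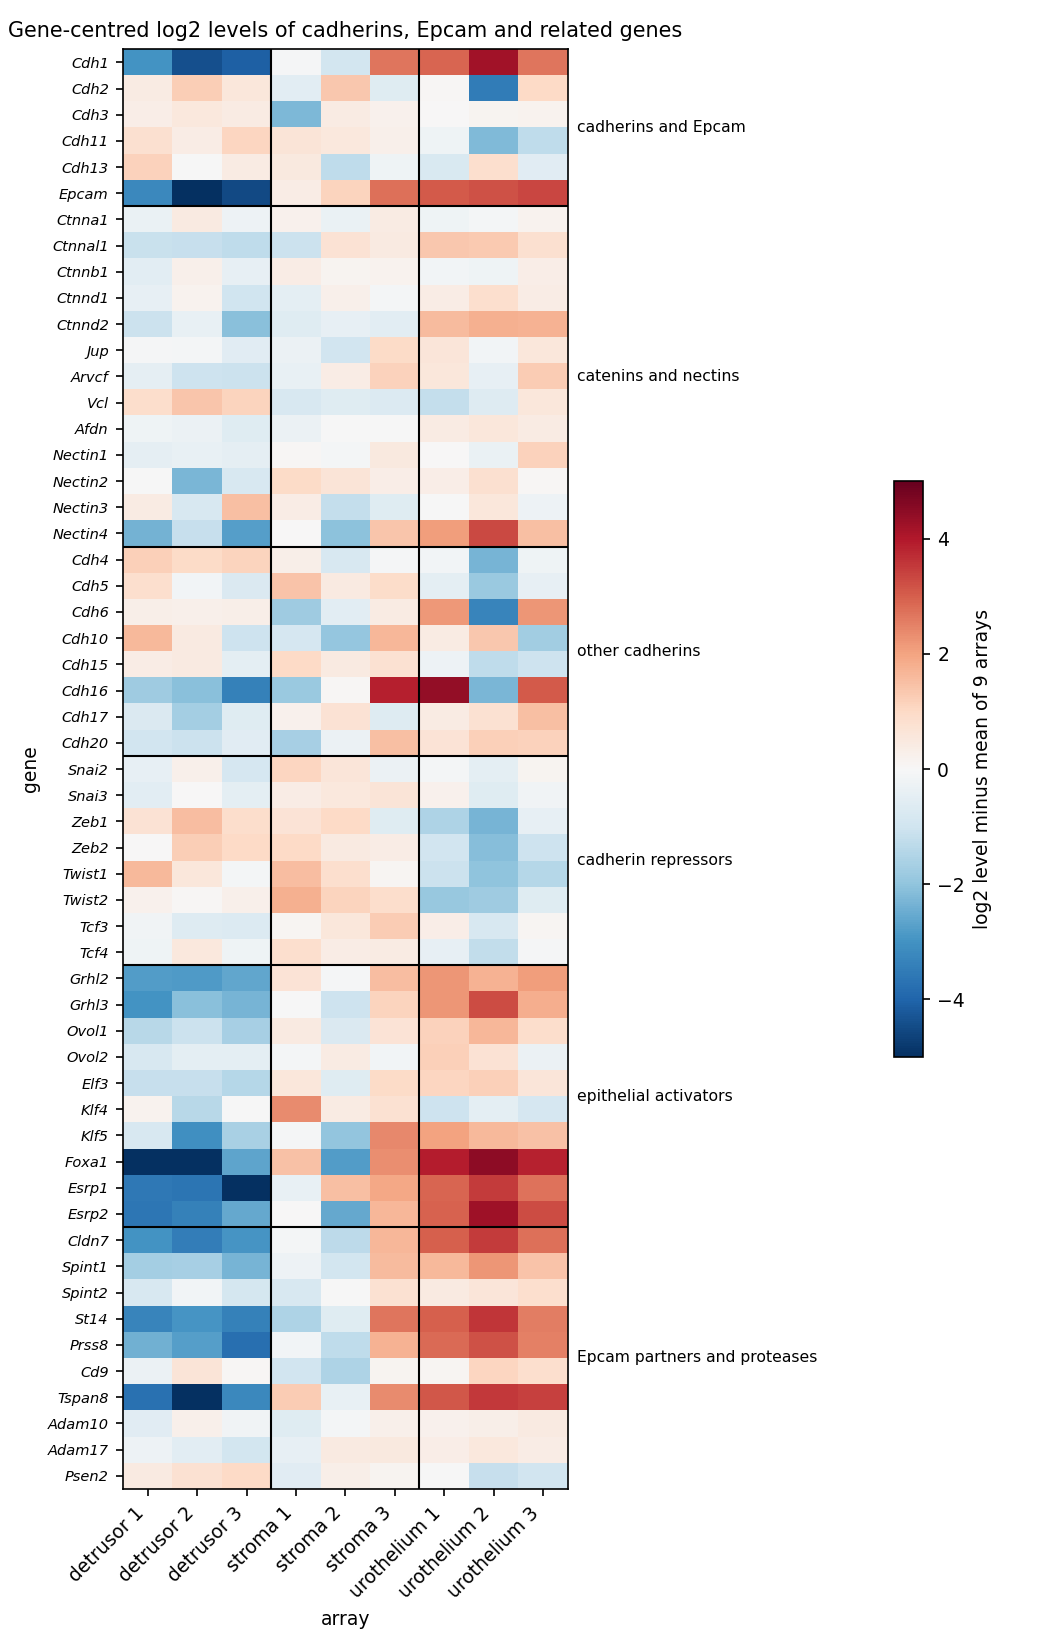
Level of the 6 genes and of the tested catenins, other cadherins, regulators and Epcam partners on the 9 arrays, each as log2(intensity + 39.31) minus the mean of that gene over the arrays, with colours held at 5 log2 units either side of 0. Grhl2, Esrp1, Esrp2, Cldn7, St14 and Prss8 are low on all 3 detrusor arrays, Klf4, Cd9 and Adam10 are not, Zeb1 and Zeb2 are low in urothelium, and Cdh16 is high on urothelium 1, urothelium 3 and stroma 3 (13.65, 12.32 and 13.15).

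The genes whose pattern lay nearest to each of the 6 were found from the root mean square difference of mean-centred levels over the 9 arrays, a measure that describes likeness and carries no test. Nearest to Epcam were Tspan8 at 0.76, Dsp (desmoplakin) at 0.79 and Smim22 at 0.84 log2 units. Nearest to Cdh1 were Cldn7 at 0.65, and Wfdc2 and the membrane protease gene Tmprss2 at 0.66 each. Cdh1 and Epcam themselves differed by 1.01 against ranges over the arrays of 8.59 and 9.45. For Cdh2 the nearest were Zfp383 at 0.36, Fat4, an atypical cadherin, at 0.42 and Plcb1 at 0.66, and Cdh11 lay at 1.09. Zfp383, Fat4 and Plcb1 were, like Cdh2, lowest on urothelium 2 (5.76, 8.55 and 7.29), and this 1 array weighs heavily in the measure. The nearest to Cdh11 were Iffo1 at 0.23 and Dbn1 and Notch4 at 0.24. The ranges of Cdh3 (2.78), Cdh11 (3.27) and Cdh13 (2.44) were small, and 111, 96 and 89 genes lay within 0.5 of them, so the nearest genes of these 3 single out little. The nearest were Zkscan14 at 0.21 and Ccnj and Zfp873 at 0.27 for Cdh3, and Snx29 at 0.34, Rpf1 at 0.36 and Slc1a5 at 0.36 for Cdh13.

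Postnatal day was mixed across the layers. Of the 13064 genes, limma called 2 for day, neither of them a member, and 0 for a layer-by-day interaction. Cdh2 was 1.55 ± 0.71 higher at day 2 and Cdh13 0.97 ± 0.41 lower, with limma adjusted p of 0.873 for both. Within each day the directions of the called differences stayed. Urothelium minus detrusor at days 1 and 2 was 7.83 and 7.70 for Epcam, 7.88 and 6.85 for Cdh1 and -2.81 and -1.80 for Cdh11. Detrusor minus stroma was -5.05 and -6.43 for Epcam and -3.63 and -4.93 for Cdh1. Among differences that were not called, Cdh2 in urothelium minus detrusor was -4.31 at day 1 and -0.06 at day 2, where day 1 rests on urothelium 2 alone, and Cdh3 in detrusor minus stroma was 2.67 and 0.07, where day 1 rests on stroma 1 alone. Each of these within-day values compares 1 array with 2 others and has no test of its own.

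**Figure D5:**
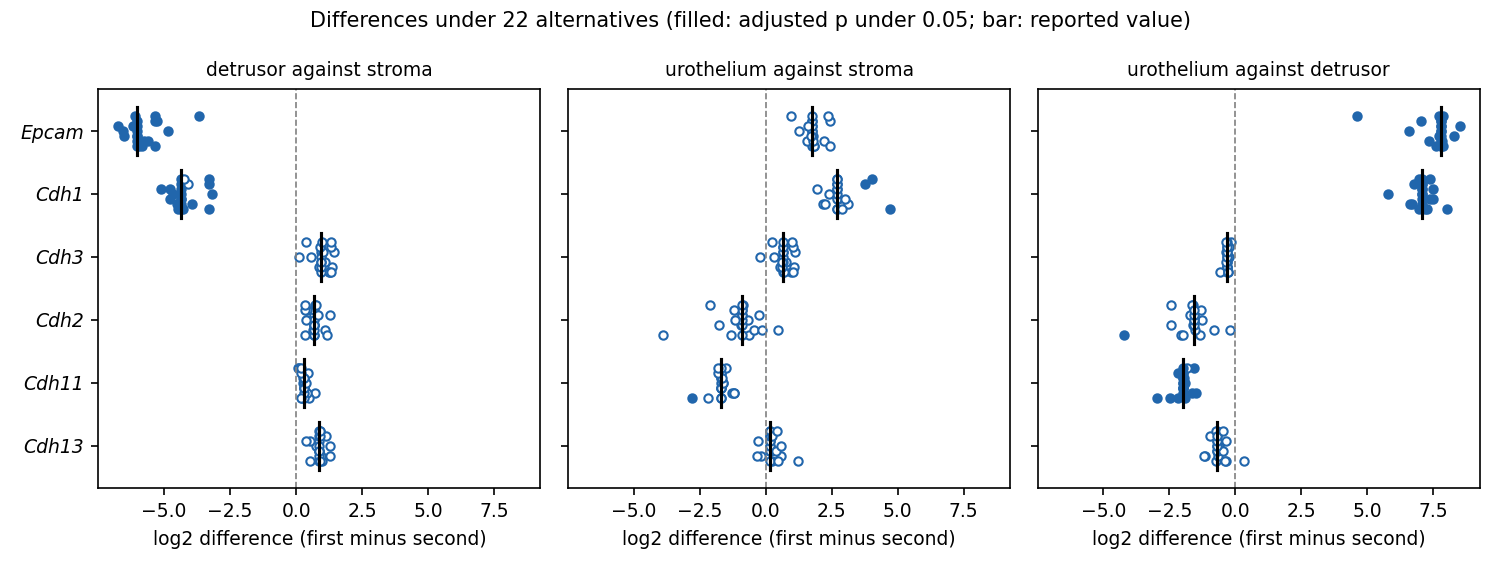
Log2 difference of each gene in the 3 comparisons as reported and under each of the 22 alternative settings. Epcam keeps its sign throughout (4.62 to 8.49 for urothelium minus detrusor), as does Cdh1, while Cdh2, Cdh3 and Cdh13 cross 0 in urothelium minus stroma and Cdh13 also in urothelium minus detrusor.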

How the data were processed

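The deposited intensities are linear values from GCOS, per the submitters' processing notes, for 9 Affymetrix arrays. Not given in the sources used here are its version, the background step and the genome build. All arrays share a trimmed mean of 1500.01 (2% off each end), so the authors' values were already scaled. Of 45101 probe sets, 34945 carried 1 gene symbol, 932 several and 9160 none, and 64 were controls. Of the named ones, 34754 matched RefSeq by gene number, with 0 symbols changed.

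Levels were taken as log2(intensity + 39.31), the constant being percentile 20 of all values. A probe set was kept if it reached its array's median on at least 3 arrays, and each gene took the probe set of highest mean. All 13064 genes were fitted together over 9 arrays with limma 3.58.1 (lmFit, eBayes with trend) in R 4.3.3, and p-values were adjusted by Benjamini-Hochberg over all genes, with 0.05 as the threshold. "Higher" and "lower" calls refer to that adjusted p. A parallel fit used 22207 probe sets. Fold changes are on the scale with the constant added and understate those of dim genes. The small number of arrays limits the precision: the median SE for detrusor against stroma was 0.45 (log2). The method was tested on simulated data.

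The 6 genes and the lists were chosen with earlier results of these data known, and the kidney tubule list was added later. All 6 genes are reported. The rule named up to 4 called genes of smallest adjusted p per related list and comparison, Cdh5, Cdh15 and the 3 nearest genes of each of the 6. Other genes of those lists, and of the kidney list, were named after their values were seen. Alternatives covered scaling, the added constant, the filter, the probe set rule, postnatal day, array weights, the variance model, the arrays fitted and leaving out each array.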

Additional observations from a re-analysis of the deposited data

How the results depend on the processing

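No paired analysis was possible because the labels give the layers no shared replicate numbers. The 2 sets of arrays left out together were chosen with marker levels known. In detrusor against stroma 763 genes were called, 105 (without detrusor 3) to 851 on leaving out 1 array, among them 190 without detrusor 2, 369 without detrusor 1 and 403 without stroma 3, then 428 without stroma 3 and urothelium 3 and 340 without stroma 3, urothelium 1 and urothelium 3. Of the 6 genes, 2 were called there, and 1 without detrusor 2 or detrusor 3.

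In urothelium against detrusor 2145 genes were called, 3785 with array weights, 1172 (without detrusor 3) to 2435 on leaving out 1 array, among them 1326 without urothelium 2, and 1417 without stroma 3, urothelium 1 and urothelium 3. Of the 6 genes, 3 were called there, and 2 without detrusor 3.

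In urothelium against stroma 30 genes were called. The count was 93 with quantile normalization, 223 with arrays centred on their medians, 13 and 304 with the added constant at the 5th percentile and the median, 10 without a filter, 112 with a filter on 6 arrays, 116 with probe sets averaged, 10 with day as covariate, 11 with array weights, and 0 without the trend or with only the 2 layers fitted. It was 0 to 528 on leaving out 1 array, 528 being without stroma 3, 102 without urothelium 3 and 50 without stroma 2. It was 440 without stroma 3 and urothelium 3 and 297 without stroma 3, urothelium 1 and urothelium 3. Of the 6 genes, 0 were called, 1 without stroma 3 or without stroma 3 and urothelium 3, and 2 without stroma 3, urothelium 1 and urothelium 3.

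The sign turned only where no difference was called: for Cdh13 in urothelium against stroma with array weights (-0.19), without urothelium 2 (-0.32) and without stroma 2 (-0.29), the range on leaving out 1 array being -0.32 to 0.59, for Cdh13 in urothelium against detrusor without stroma 3, urothelium 1 and urothelium 3 (0.32), for Cdh2 in urothelium against stroma without urothelium 2 (0.46, range -1.79 to 0.46) and for Cdh3 there without stroma 1 (-0.21, range -0.21 to 1.11). The cause of these changes was not tested, beyond the fewer arrays in each smaller fit. Of the Cdh13 probe sets, 3 of 4 stayed under the filter, while the one that stands for the gene reached the array median on all 9 arrays. Dim signal limits detrusor Epcam, which came near the level of no signal. It also limits detrusor Cdh1, which lay below the array median on every detrusor array.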

Other observations

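Of the 8 other cadherins tested, Cdh16, the kidney cadherin, and Cdh6, known from the developing kidney tubule, were picked out after their values were seen, because they differed widely between arrays of 1 layer. Cdh16 read 13.65 on urothelium 1, 12.32 on urothelium 3 and 13.15 on stroma 3, 9.30 on stroma 2, and 5.87 to 7.49 on the other 5 arrays. The genes nearest to it over the 9 arrays were Acsm2, Pou3f3 and Cltrn, at 0.63, 0.64 and 0.77 log2 units. Cdh6 read 12.18 on urothelium 1 and 12.21 on urothelium 3 but 6.73 on urothelium 2, with 10.26 to 10.30 in detrusor and 8.24 to 10.43 in stroma, so that on stroma 3 it was near the detrusor level where Cdh16 was high. Its nearest genes were Ptn, Tnfsf10 and Pappa2, at 0.65, 0.84 and 0.88.

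Several further kidney tubule genes, but not all, were high on the arrays where Cdh16 was. Lrp2 read only 7.44 to 8.43 over all arrays. Slc12a3 read 9.85 on urothelium 1 but 5.77, 5.63 and 6.30 on urothelium 3, stroma 2 and stroma 3. Umod, which encodes uromodulin of the thick ascending limb, read 13.47 on urothelium 1, 15.53 on stroma 3, 12.20 on stroma 2 and 10.18 on urothelium 3, and 5.65 to 8.37 on the other arrays. Slc12a1, the sodium, potassium and chloride carrier of the same segment, read 14.61, 13.80, 10.11 and 10.18 on those arrays and 6.75 to 8.35 elsewhere. With Cdh16 left out, the summed intensity of the other 10 measured genes of the list was 53682 on urothelium 1, 72963 on stroma 3, 5767 on urothelium 3 and 8857 on stroma 2, against 939 to 1669 on the other 5. Umod and Slc12a1 had the highest levels of the 10 on urothelium 1 and stroma 3 and weigh most in the sums of those arrays. Of the 10, those at or above the array median numbered 10 on urothelium 1, 8 on stroma 3, 7 on stroma 2 and 6 on urothelium 3, and 1 to 4 elsewhere. By definition, as many probe sets of an array lie above its median as below it. Urothelium 1, urothelium 3, stroma 2 and stroma 3 were all of postnatal day 2, and urothelium 2 and stroma 1 of day 1. In these layers the kidney signal and day therefore cannot be told apart. Detrusor 3, also of day 2, had a low median of the list without Cdh16 (7.02). The part of the kidney tubule transcripts in the levels of Cdh1 and Epcam was not tested.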
